A study of Saccharomyces cerevisiae with 12 samples.

Results

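The mRNAs of 10 yeast enzymes that carry glucose carbon to ethanol were followed: TDH1, TDH2, TDH3, TPI1, PGK1, ENO1, ENO2, PDC1, ADH1 and ADH2. They were taken by gene ID from the 7127 genes of the deposited count tables, and all 10 passed the filter on low counts in both tables. The cells were untreated Saccharomyces cerevisiae of the strain BY4741, a descendant of S288C, kept in YPD (a complex medium with glucose) and harvested at mid-log phase for total RNA. H2AZ_4KR cells, named for lysine-to-arginine substitutions at 4 positions of the histone variant H2A.Z (gene HTZ1), were set against WT_H2AZ cells. Ino80_K929R cells, named for a lysine-to-arginine substitution in Ino80, a catalytic subunit that moves nucleosomes as part of the remodeller INO80, were set against WT_Ino80 cells. Each of the 4 groups had 3 libraries, and the labels do not say whether these came from separate cultures or how each allele was carried, so the p-values measure the spread between these libraries, which may be technical.

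In glycolysis, triose phosphate isomerase (TPI1), glyceraldehyde-3-phosphate dehydrogenase (TDH1, TDH2 and TDH3), phosphoglycerate kinase (PGK1) and enolase (ENO1 and ENO2) act in the lower part of the route. Pyruvate decarboxylase (PDC1) then makes acetaldehyde, and alcohol dehydrogenase (ADH1) reduces it to ethanol and regenerates NAD+. ADH2, the close paralog of ADH1, works mainly in the reverse direction when ethanol is used, and is known to be repressed by glucose. In glucose-grown yeast these enzymes, ADH2 and the minor TDH1 aside, are among the most abundant proteins of the cell. Their genes are classical targets of the activators Rap1 and Gcr1, whereas ADH2 is the classical target of Adr1.

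By gene ID and position in sacCer3, they are TPI1 (YDR050C, chrIV:555726-556472), TDH1 (YJL052W, chrX:338271-339269), TDH2 (YJR009C, chrX:453683-454681), TDH3 (YGR192C, chrVII:882812-883810), PGK1 (YCR012W, chrIII:137746-138996), ENO1 (YGR254W, chrVII:1000927-1002240), ENO2 (YHR174W, chrVIII:451327-452640), PDC1 (YLR044C, chrXII:232390-234081), ADH1 (YOL086C, chrXV:159548-160594) and ADH2 (YMR303C, chrXIII:873291-874337). Each of these spans is coding sequence without an intron or UTR, with the same start and end in the count tables and in RefSeq's R64 annotation.

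Because several of these genes are near copies, what separates a paralog's fragments from its sister's is a limited number of bases. The TDH2 and TDH3 coding sequences were identical at 95.8% of positions, ENO1 and ENO2 at 94.8%, TDH1 and TDH2 at 90.2%, TDH1 and TDH3 at 88.9%, and ADH1 and ADH2 at 88.8%. The 60-base stretch with the most differing positions in each family is printed below from the RefSeq genome of build R64, the sequence of sacCer3. It reads 5′ to 3′ on the coding strand, with capitals at positions where the family members differ.
TDH1: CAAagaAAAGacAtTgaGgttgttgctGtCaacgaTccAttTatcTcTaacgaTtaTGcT
TDH2: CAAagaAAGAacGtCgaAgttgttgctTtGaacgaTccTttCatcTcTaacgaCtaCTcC
TDH3: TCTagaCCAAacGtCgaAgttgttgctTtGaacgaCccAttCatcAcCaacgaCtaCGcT
ENO1: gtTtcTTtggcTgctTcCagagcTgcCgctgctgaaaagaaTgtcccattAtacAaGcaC
ENO2: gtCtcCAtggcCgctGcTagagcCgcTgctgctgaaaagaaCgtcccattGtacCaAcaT
ADH1: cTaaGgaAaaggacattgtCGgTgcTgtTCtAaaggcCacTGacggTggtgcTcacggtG
ADH2: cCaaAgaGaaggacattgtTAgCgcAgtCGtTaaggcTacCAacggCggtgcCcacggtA

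These stretches lie at chrX:338334-338393 on the plus strand (TDH1), chrX:454559-454618 on the minus strand (TDH2), chrVII:883688-883747 on the minus strand (TDH3), chrVII:1001266-1001325 on the plus strand (ENO1), chrVIII:451666-451725 on the plus strand (ENO2), chrXV:159868-159927 on the minus strand (ADH1) and chrXIII:873611-873670 on the minus strand (ADH2), all within the single coding exon of each gene. Away from them, the paralogs hold long identical runs. Of all 50-base windows, 24.4% were identical between TDH2 and TDH3, 23.6% between ENO1 and ENO2, and 14% between ADH1 and ADH2. Fragments that mapped to several places were not counted, so reads from such windows could be lost, and the counts of these paralogs, and shares made from them, are uncertain in absolute size. Whether the loss was equal in every library was not tested.

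The upstream sequences of 3 members are shown because they hold the letters usually given for the activators named above. Motifs were searched on both strands of the 600 bases before the start codon, and a match is a description of the letters only. The Gcr1-type CTTCC lay upstream of 8 of the 10 members, all but TDH3 and ADH2, and of 72.7% of 5717 genes with a full window, so the members' count is near the background. The long Rap1-type motif, which is ACCCNNNCA with AC before it, matched no member and 1.63% of genes. The shorter ACCCNNNCA was chosen after that search, and it matched TDH3, PGK1 and ENO1 and 14.8% of genes. The Adr1-type TTGGAGA was present upstream of ADH2 alone among the members, in 2 copies on opposite strands, pointing away from each other, between 292 and 271 bases before its start codon, against 8.64% of genes with a copy and 0.35% with 2 or more. None of these motifs overlapped another in the stretches below, where capitals mark the matches on either strand, and only stretches of PGK1 and ENO1 that held both ACCCNNNCA and CTTCC are printed.
PGK1: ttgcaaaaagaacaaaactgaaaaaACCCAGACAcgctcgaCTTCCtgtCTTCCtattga
ENO1: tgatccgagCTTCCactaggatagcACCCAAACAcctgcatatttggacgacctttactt
ADH2: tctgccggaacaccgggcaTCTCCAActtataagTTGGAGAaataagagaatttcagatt

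They lie at chrIII:137249-137308 on the plus strand (PGK1), chrVII:1000435-1000494 on the plus strand (ENO1) and chrXIII:874589-874648 on the minus strand (ADH2), each printed 5′ to 3′ towards its own gene.

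The libraries held 17253140 to 20164258 counted fragments. Levels are given as CPM, the fragments of a gene per 1000000 counted in that library, and per kb of coding length wherever genes are set beside each other. Fold changes and adjusted p-values come from edgeR's quasi-likelihood test across all genes with Benjamini-Hochberg adjustment, and a gene was called changed at an adjusted p below 0.05 and a fold over 1.5, the limits stated by the series. The fold changes use TMM scaling, whereas overlap of groups was judged in CPM by library totals. Where libraries were scaled by their totals instead, the median gene shifted by -0.14 (log2) in H2AZ_4KR, 0.05 in Ino80_K929R, -0.18 in the difference between both effects and -0.06 between the wild types. Counts do not tell the substituted proteins from wild type, but the mutated genes' own levels were unlike. HTZ1 had 387 ± 62.3 CPM in H2AZ_4KR, against 95.9 ± 2.88 CPM in WT_H2AZ, and INO80 had 1200 ± 150 CPM in Ino80_K929R, against 150 ± 24.4 CPM in WT_Ino80 (SD, n = 3 each), with adjusted p of 1.1e-05 and 0.000521. The level of these genes and their substitutions cannot be told apart. The markers of BY4741 were partly as its genotype gives them: all 6 MATa-specific genes were read in every group, at means of 38.6 to 800 CPM, MET17 had 0 fragments in all libraries, which allows up to 3 in each for counting error only, and URA3 had at most 3 fragments per group. Of the MATalpha-specific genes, MF(ALPHA)1, MF(ALPHA)2 and STE3 had group means of 0.308 to 16.5 CPM and SAG1 of 27.3 to 63.4 CPM. These levels were not alike in the wild types. Against WT_H2AZ, 4 of 6 MATa-specific genes were called lower in WT_Ino80 (MFA2, AGA2, BAR1 and STE2). Of 4 MATalpha-specific genes, 3 were called higher there and 1 (SAG1) lower, beside 17.7% of all genes higher and 15% lower. LEU2, which BY4741 lacks, had 138 ± 18.3 CPM in H2AZ_4KR and 0 fragments in WT_H2AZ, and 145 ± 21.6 CPM in Ino80_K929R and 166 ± 14.9 CPM in WT_Ino80, and HIS3 was read in all 4 groups. H2AZ_4KR therefore differed from WT_H2AZ in LEU2 as well, and what LEU2 contributes to the values below cannot be told apart from the substitution.

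The 10 mRNAs together made up a large part of each library. In bulk RNA such as this, fewer cells with an mRNA and less of it per cell cannot be told apart. They held 10.8% ± 1.25 of counted fragments in H2AZ_4KR and 8.25% ± 0.884 in WT_H2AZ, and 9.96% ± 0.993 in Ino80_K929R and 10.98% ± 1.46 in WT_Ino80 (SD, n = 3 each). The H2AZ groups did not overlap, with 9.70 to 12.2% in H2AZ_4KR and 7.32 to 9.09% in WT_H2AZ, and differed by 2.59 percentage points. The exact permutation test gave p = 0.1, the smallest that 3 libraries against 3 allow, and an adjusted p of 0.164 over the 18 shares tested. The Ino80 groups overlapped and differed by -1.02 points (exact permutation p = 0.4, adjusted p = 0.554).

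Per kb, TDH3 was the most abundant mRNA of all 7127 genes in each of the 12 libraries, at 31041 CPM per kb in H2AZ_4KR, 23234 in WT_H2AZ, 26858 in Ino80_K929R and 29789 in WT_Ino80. ADH1 and ENO2 came next among the members, at 16258 and 15925 CPM per kb in H2AZ_4KR, a gap smaller than their SDs of 1498 and 1764. ADH1 was the higher within each H2AZ_4KR library. PDC1 followed with 9458 ± 794 CPM per kb in that group, and TPI1, TDH2 and PGK1 with 6422 ± 1554, 5760 ± 1511 and 5181 ± 873, whose ranges overlapped. TPI1 was above PGK1 within each H2AZ_4KR library, and the place of TDH2 among them changed between libraries. ENO1 had 3497 ± 1061 CPM per kb and TDH1 1774 ± 1418. ADH2 stood far under the rest, at 18.6 ± 4.69 CPM per kb in H2AZ_4KR and at most 223 ± 70.5 in WT_Ino80.

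**Figure D1:**
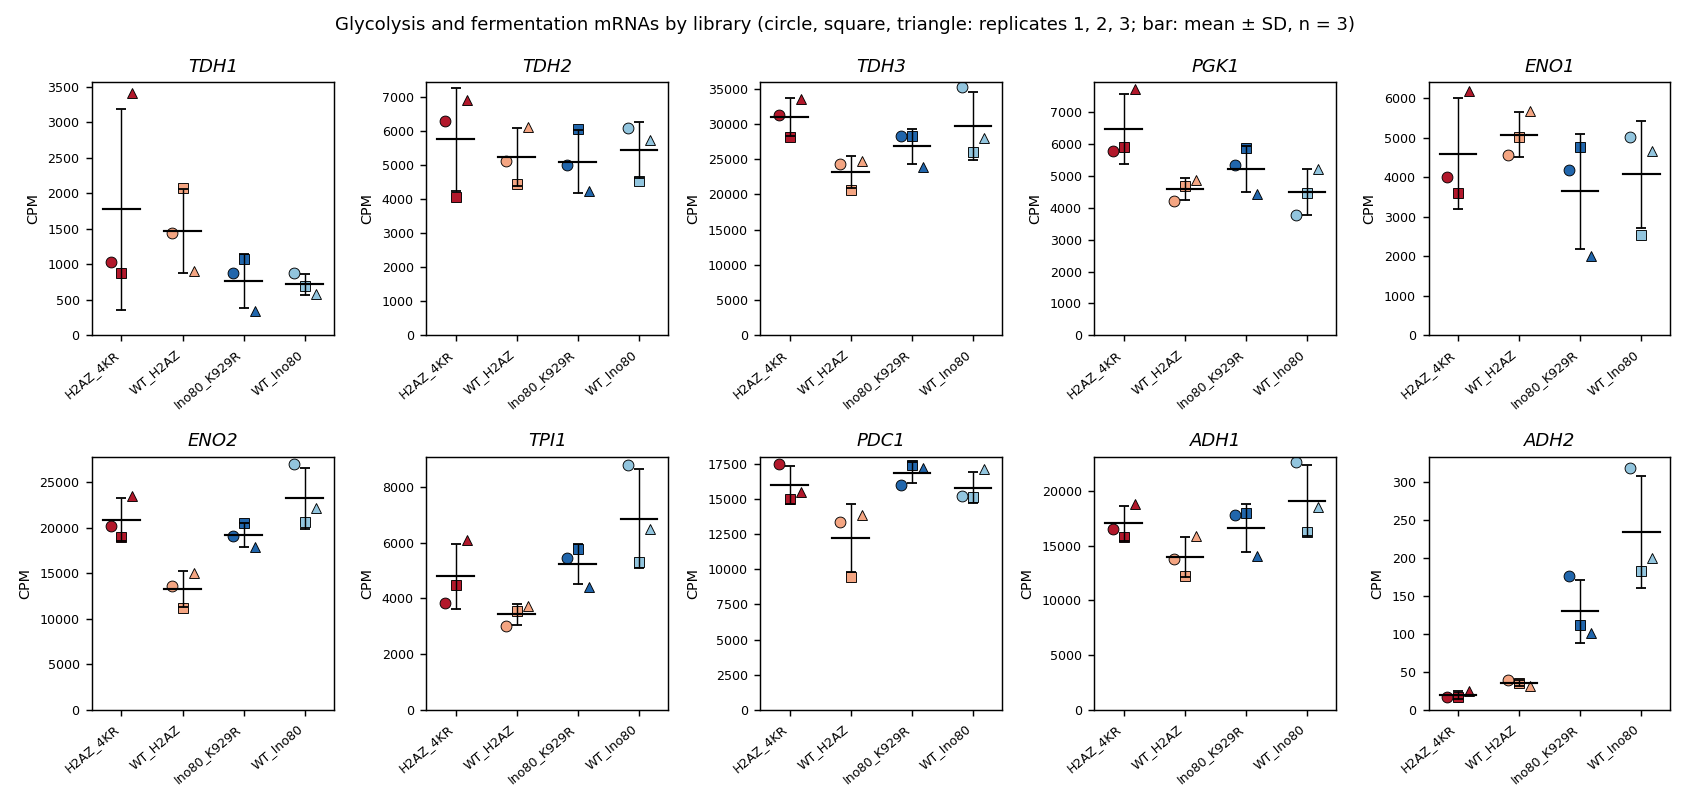
Level of each of the 10 mRNAs in CPM (vertical axes, linear from 0, each with its own range) in the 3 libraries of each group. Symbols are libraries, and bars are the mean and SD. ENO2 and PGK1 libraries of H2AZ_4KR lie above all WT_H2AZ libraries, TDH1 has 1 high H2AZ_4KR library at 3406 CPM, and the 4 groups of ADH2 do not overlap.

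In H2AZ_4KR, 3 of the 10 mRNAs rose against WT_H2AZ (ENO2, PGK1 and TPI1), 1 fell (ADH2) and 6 did not pass the test. Over all 6106 genes tested, 12.1% were called, 4.78% upward and 7.32% downward. The median log2 fold change of the members was 0.47, against -0.01 for all genes, and 8 of 10 were above 0. In CPM, groups did not overlap for 6 of the 10, where 44.4% of all genes showed the same.

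ENO2, the enolase that predominates on glucose, had 20260, 19014 and 23505 CPM in H2AZ_4KR, against 13625, 11153 and 15071 CPM in WT_H2AZ. Every H2AZ_4KR library lay above every WT_H2AZ library, and the log2 fold change was 0.79 ± 0.235 (SE, adjusted p = 0.0352). PGK1, which makes ATP from 1,3-bisphosphoglycerate, had 5797, 5907 and 7741 CPM in H2AZ_4KR, against 4212, 4677 and 4884 CPM in WT_H2AZ. The groups were again apart, with the third H2AZ_4KR library the highest, and the log2 fold change was 0.64 ± 0.186 (adjusted p = 0.0323). TPI1, which interconverts the triose phosphates, had 3824, 4486 and 6082 CPM in H2AZ_4KR, against 3005, 3561 and 3712 CPM in WT_H2AZ. Its groups were separated by a narrow gap, and the estimate was 0.62 ± 0.202 on the log2 scale (adjusted p = 0.0471).

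These 3 rises rested on few libraries. None of them was called when H2AZ_4KR replicate 3, WT_H2AZ replicate 1 or WT_H2AZ replicate 2 was left out, with log2 fold changes then between 0.42 and 0.81 and adjusted p between 0.0640 and 0.175. Without H2AZ_4KR replicate 1, ENO2 alone was lost (adjusted p = 0.0662), and TPI1 alone was lost without H2AZ_4KR replicate 2 (adjusted p = 0.0705) or WT_H2AZ replicate 3 (adjusted p = 0.0610). In 1 fit of all 12 libraries, the folds were nearly the same and no member was called, with adjusted p of 0.0816 for ENO2, 0.0785 for PGK1 and 0.197 for TPI1. Under scaling by total counts only ENO2 stayed past both limits, with PGK1 at 0.50 and TPI1 at 0.49 on the log2 scale.

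ADH2 fell to 16.8, 16.5 and 25.1 CPM in H2AZ_4KR, against 39.2, 35.0 and 31.0 CPM in WT_H2AZ, which is 284 to 438 fragments per library in H2AZ_4KR and 548 to 684 in WT_H2AZ. The groups did not overlap, and the log2 fold change was -0.71 ± 0.175 (SE, adjusted p = 0.0158). The call was lost without H2AZ_4KR replicate 2, at -0.59 (adjusted p = 0.0539), and in the fit of all 12 libraries, at -0.71 (adjusted p = 0.190).

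The remaining members gave values short of the limits. TDH3, the main glyceraldehyde-3-phosphate dehydrogenase, had 31228, 28222 and 33582 CPM in H2AZ_4KR, against 24320, 20596 and 24717 CPM in WT_H2AZ. These groups did not overlap, yet the log2 fold change of 0.55 ± 0.242 had an adjusted p of 0.125. PDC1 had 17528, 14995 and 15484 CPM in H2AZ_4KR, against 13348, 9471 and 13880 CPM in WT_H2AZ, also without overlap, and 0.52 on the log2 scale (adjusted p = 0.141). ADH1 was at 0.42 (adjusted p = 0.201) and TDH2 at 0.27 (adjusted p = 0.435) on the log2 scale, both with overlapping groups in CPM. On the TMM scale the ADH1 groups did not overlap.

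TDH1 and ENO1 were the members with the widest spread in H2AZ_4KR. TDH1, the minor dehydrogenase gene that is known from stationary and stressed cells, had 1028, 883 and 3406 CPM in H2AZ_4KR, against 1436, 2069 and 898 CPM in WT_H2AZ. The third H2AZ_4KR library was above all others and the remaining H2AZ_4KR libraries lay within the WT_H2AZ range. Its log2 fold change was 0.43 ± 0.453 (adjusted p = 0.524) and turned to -0.46 (adjusted p = 0.294) without H2AZ_4KR replicate 3. Its coefficient of variation in H2AZ_4KR, 80.2% on the TMM scale, was the highest of the 157 genes above 1000 CPM, whose median was 11.7%. ENO1, the enolase gene that is not induced by glucose, had 4003, 3595 and 6187 CPM in H2AZ_4KR, against 4547, 5018 and 5663 CPM in WT_H2AZ. The groups overlapped, and the log2 fold change was -0.01 ± 0.226 (adjusted p = 0.990), a sign that changed with several settings.

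In Ino80_K929R, none of the 10 mRNAs was called against WT_Ino80. Of all 6161 genes tested, 0.0162% were called, which is INO80 itself, while 380 genes had an unadjusted p below 0.05, ADH2 among them. DESeq2 called 9 genes and no member. The members' median log2 fold change was -0.22, against -0.01 for all genes, and their values ran from -0.93 to 0.18. That median rested on few libraries. It was 0.03 without WT_Ino80 replicate 1 and -0.05 without Ino80_K929R replicate 3. With any other library left out it lay between -0.40 and -0.23. In CPM, groups did not overlap for 2 of the 10, ENO2 and ADH2, against 14.8% of all genes. On the TMM scale of the fold changes, the ranges of both genes crossed.

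ADH2 had 177, 112 and 100.6 CPM in Ino80_K929R, against 319, 183 and 200 CPM in WT_Ino80. In CPM the ranges came close to each other but did not meet, and on the TMM scale they crossed. The log2 fold change was -0.93 ± 0.346 (SE, adjusted p = 0.722). ENO2 had 19094, 20531 and 17892 CPM in Ino80_K929R, against 27037, 20611 and 22180 CPM in WT_Ino80. In CPM its groups were apart only by the narrow step between the second Ino80_K929R library and the second WT_Ino80 library. On the TMM scale these libraries changed order, and the log2 fold change was -0.35 ± 0.275 (adjusted p = 0.734). TPI1 had 5461, 5790 and 4412 CPM in Ino80_K929R, against 8802, 5326 and 6483 CPM in WT_Ino80, overlapping groups whose log2 estimate was -0.47 ± 0.304 (adjusted p = 0.722). The other 7 members had log2 fold changes from -0.27 for ADH1 to 0.18 for PGK1. Standard errors of 0.218 to 0.428 mean that a change of the size called in H2AZ_4KR could have been missed here, so these values do not show that the mRNAs were unaltered.

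**Figure D2:**
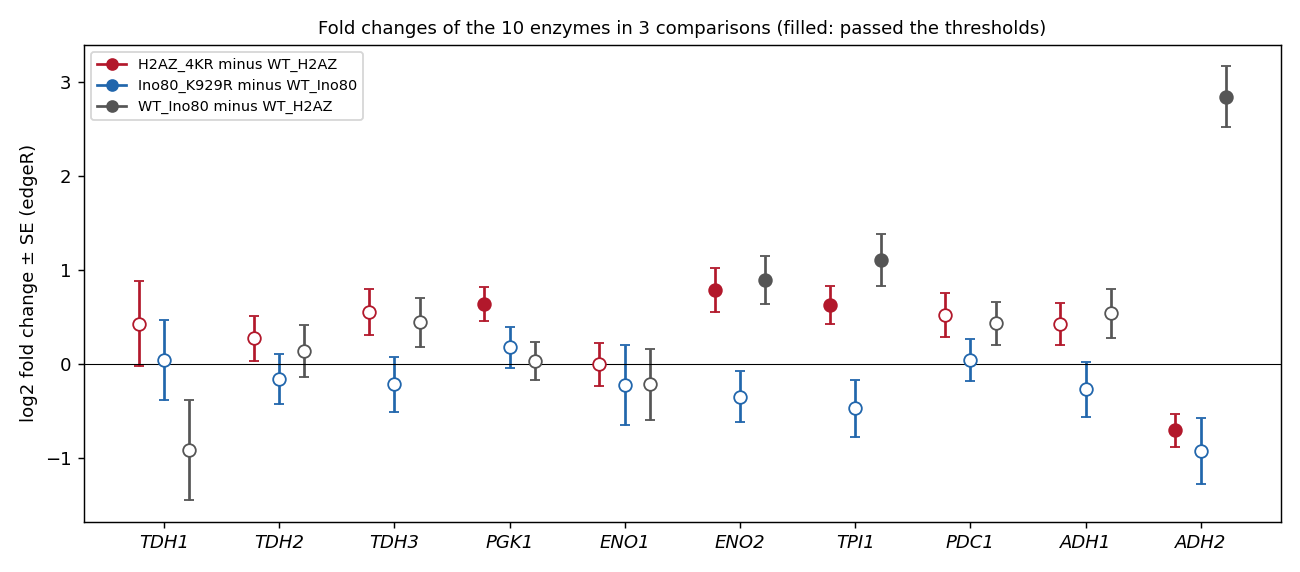
Log2 fold change with its standard error (vertical axis) of each of the 10 mRNAs in H2AZ_4KR minus WT_H2AZ, Ino80_K929R minus WT_Ino80 and WT_Ino80 minus WT_H2AZ, filled where the change passed both limits. ENO2, PGK1, TPI1 and ADH2 are filled in the first comparison, none in the second, and ADH2 at 2.85, TPI1 and ENO2 in the third.

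The difference between the mutant effects was tested directly as a contrast over all 12 libraries, in which 4.25% of 6235 genes were called (1.99% higher and 2.26% lower in H2AZ_4KR) and none of the 10 members, although 2 of them had an unadjusted p below 0.05, as had 1508 of all genes. All 10 had the higher log2 fold change in H2AZ_4KR, by 0.22 to 1.13. The median difference was 0.47 for the members and -0.02 for all genes. For TDH1, ENO1 and ADH2 the sign depended on which libraries were kept. ENO2 differed by 1.13 ± 0.358 (SE, adjusted p = 0.0801) and TPI1 by 1.10 ± 0.388 (adjusted p = 0.108). Under scaling by total counts the difference for ENO2 was 0.94 and was called (adjusted p = 0.0377). For ADH2 the difference was 0.22 ± 0.429 (adjusted p = 0.788).

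The wild types themselves were unlike. Against WT_H2AZ, 3 members were higher in WT_Ino80 (ADH2, TPI1 and ENO2) and none lower, where 32.7% of 6235 genes were called, 17.7% higher and 15% lower. In CPM, groups did not overlap for 7 of the 10 members, against 49.7% of all genes. WT_Ino80 and WT_H2AZ were counted in separate tables, so strain and any batch of the tables cannot be told apart, and this comparison shares the WT_H2AZ libraries with that of H2AZ_4KR. The wild types also differed in LEU2, with 166 ± 14.9 CPM in WT_Ino80 and 0 fragments in WT_H2AZ. HTZ1 was called higher in WT_Ino80, at 0.64 ± 0.137 in log2 (adjusted p = 0.00292), and INO80 was not called, at -0.14 (adjusted p = 0.404). What these differences contribute cannot be told apart.

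ADH2 showed the widest range of the members. Its mean was 234 ± 73.8 CPM in WT_Ino80 and 35.1 ± 4.08 CPM in WT_H2AZ (SD, n = 3 each), a log2 difference of 2.85 ± 0.322 (SE, adjusted p = 7.4e-05). The groups ran from 19.5 ± 4.91 CPM in H2AZ_4KR over WT_H2AZ and 130 ± 41.2 CPM in Ino80_K929R up to WT_Ino80. No neighbours in this order overlapped in CPM, but Ino80_K929R and WT_Ino80 did on the TMM scale. TPI1 had a mean of 6871 ± 1770 CPM in WT_Ino80 and 3426 ± 372 CPM in WT_H2AZ, a log2 difference of 1.10 ± 0.277 (adjusted p = 0.00732). ENO2 had a mean of 23276 ± 3350 CPM in WT_Ino80 and 13283 ± 1981 CPM in WT_H2AZ, a log2 difference of 0.89 ± 0.255 (adjusted p = 0.0143). These 3 calls were kept under each setting tried for this comparison.

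Paralog shares, the percent of a family's fragments per kb that belong to each gene, do not depend on library scaling. Each was compared with the exact two-sided permutation test of 3 libraries against 3, which cannot go below p = 0.1, or 0.164 after adjustment over 18 tests, so none could pass 0.05. The enolase family differed most in absolute share. ENO1 made up 16.5, 15.9 and 20.8% of enolase fragments in H2AZ_4KR, against 25.0, 31.0 and 27.3% in WT_H2AZ. All H2AZ_4KR libraries were under all WT_H2AZ libraries, with means of 17.7% ± 2.69 and 27.8% ± 3.03 (SD) and a difference of -10.0 percentage points (exact p = 0.1, adjusted p = 0.164). In the other table, ENO1 held 15.6% ± 4.83 in Ino80_K929R and 14.7% ± 3.35 in WT_Ino80, which overlapped (exact p = 0.7).

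Among the glyceraldehyde-3-phosphate dehydrogenases, TDH3 held 80.9% ± 4.32 of the family in H2AZ_4KR, 77.5% ± 1.46 in WT_H2AZ, 82.2% ± 2.10 in Ino80_K929R and 82.8% ± 1.05 in WT_Ino80 (SD, n = 3 each). TDH2 held 16.3, 12.2 and 15.7% in H2AZ_4KR, against 16.5, 16.4 and 19.3% in WT_H2AZ. The highest H2AZ_4KR library was just under the lowest WT_H2AZ library (exact p = 0.1), and TDH2 held 15.5% ± 1.36 in Ino80_K929R and 15.2% ± 1.30 in WT_Ino80. TDH1 held 4.36% ± 2.94 in H2AZ_4KR, with 7.76% in replicate 3, and 5.04% ± 2.42 in WT_H2AZ, with 2.27% ± 0.950 in Ino80_K929R and 2.003% ± 0.271 in WT_Ino80.

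The alcohol dehydrogenase pair was almost all ADH1. ADH2 made up 0.113% ± 0.0177 of the pair in H2AZ_4KR and 0.255% ± 0.0516 in WT_H2AZ, and 0.770% ± 0.190 in Ino80_K929R and 1.19% ± 0.174 in WT_Ino80 (SD, n = 3 each). In each table the mutant libraries were all under those of their wild type (exact p = 0.1 for each). At such shares, fragments assigned to the wrong gene of the pair would weigh on ADH2, and how many there were was not tested.

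PDC1 held 99.5 to 99.9% of the pyruvate decarboxylase family as group means, with its paralogs PDC5 and PDC6 making up the rest. PDC6, a gene of little expression on glucose, held 0.00972% ± 0.00366 in H2AZ_4KR and 0.0303% ± 0.0117 in WT_H2AZ, and 0.107% ± 0.00704 in Ino80_K929R and 0.190% ± 0.0521 in WT_Ino80. PDC5 held 0.128% ± 0.0150 in H2AZ_4KR and 0.228% ± 0.0502 in WT_H2AZ, and 0.192% ± 0.0360 in Ino80_K929R and 0.287% ± 0.0572 in WT_Ino80. For both genes the mutant libraries were all under those of their own wild type in each table (exact p = 0.1 for each). PDC6 rested on 22 to 79 fragments per library in the H2AZ table and 343 to 708 in the Ino80 table.

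**Figure D3:**
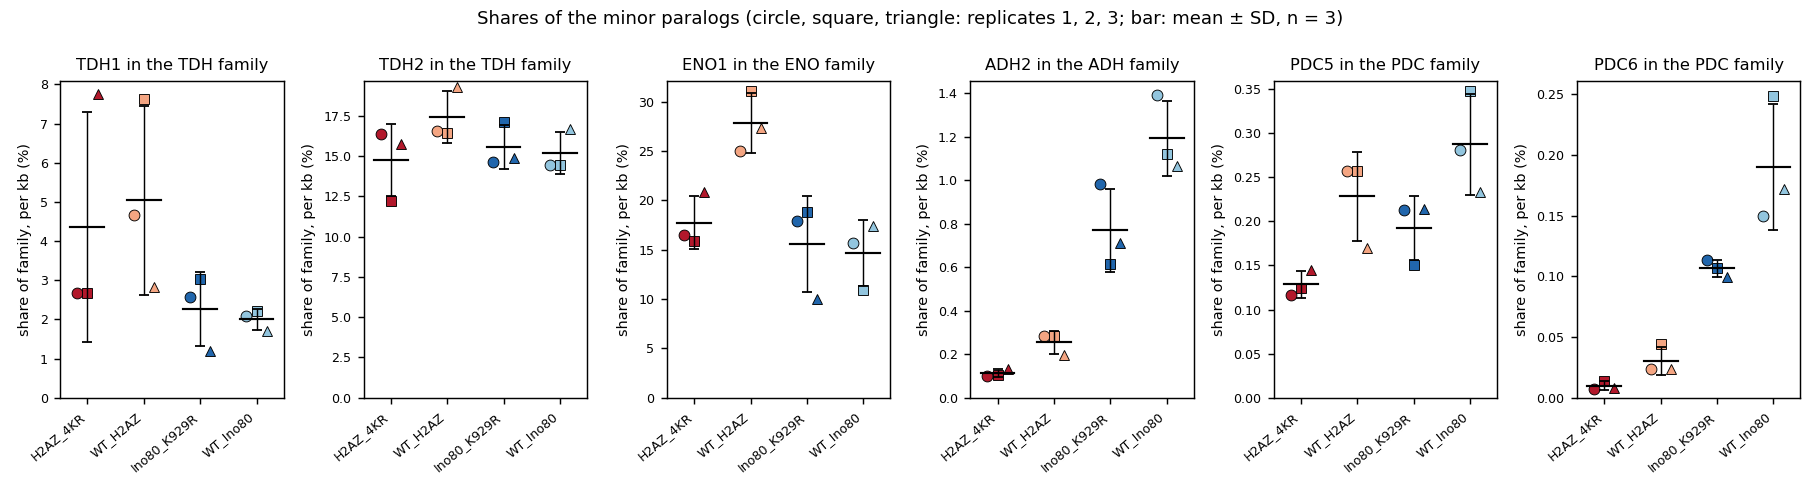
Share of the minor paralogs in their families, in percent of the family's fragments per kb (vertical axes, linear from 0), for the 3 libraries of each group with the mean and SD. ENO1 lies between 15.9 and 20.8% in H2AZ_4KR and between 25.0 and 31.0% in WT_H2AZ, and the ADH2, PDC5 and PDC6 shares are lower in each mutant than in its own wild type.

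The other enzymes of the same route were read from 7 lists of pathway genes. In H2AZ_4KR, 4 of 12 other glycolytic genes tested fell and none rose. The counts of this list and of those that follow stand beside 7.32% of all genes called lower and 4.78% called higher. These were HXK1 and HXK2, the hexokinases, at -0.75 ± 0.174 and -0.67 ± 0.152 on the log2 scale (SE, adjusted p = 0.0118 and 0.0113), PYK2, the minor pyruvate kinase, at -0.85 ± 0.1199 (adjusted p = 0.00138), and GPM2, a homolog of phosphoglycerate mutase, at -0.82 ± 0.210 (adjusted p = 0.0184). The abundant FBA1, fructose-bisphosphate aldolase, was at 0.56 ± 0.215 (adjusted p = 0.0861). Of the other uncalled genes, GPM1 was at 0.55, PGI1 at 0.52, CDC19 at 0.34, PFK1 at 0.32 and PFK2 at 0.29. GLK1 was at -0.35 and GPM3 at -0.08. PGI1 passed the limit on p (adjusted p = 0.0499) but not that on fold. The median of the list was 0.11, against -0.01 for all genes.

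Of 6 other fermentation genes, 2 fell in H2AZ_4KR, PDC6 at -1.06 ± 0.315 (adjusted p = 0.0342) and ADH5, a further alcohol dehydrogenase, at -0.86 ± 0.223 (adjusted p = 0.0195). ADH3, the mitochondrial enzyme, had 0.17 (adjusted p = 0.273), ADH4 0.03 (adjusted p = 0.884), SFA1 -0.00194 (adjusted p = 0.993) and PDC5 -0.28 (adjusted p = 0.2505). The enolase-related ERR1, ERR2 and ERR3 did not pass the filter in this table. On the branch from acetaldehyde to acetyl-CoA, 4 of 7 genes fell and none rose, led by the aldehyde dehydrogenase ALD5 at -1.11 ± 0.112 (adjusted p = 0.000249) and the acetyl-CoA synthetase ACS1 at -0.94 ± 0.146 (adjusted p = 0.00199), with ALD4 at -0.78 and ALD6 at -0.83. Of 5 gluconeogenic genes 3 fell, PCK1, phosphoenolpyruvate carboxykinase, at -2.23 ± 0.467 (adjusted p = 0.00747), FBP1 at -0.69 and MDH2 at -0.69, and none of 4 glycerol genes was called. PCK1 rested on 76 fragments summed over the H2AZ_4KR libraries and 391 over those of WT_H2AZ.

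Among 10 regulators of these genes, ADR1, which encodes the activator of ADH2, fell to 134 ± 10.5 CPM in H2AZ_4KR, against 409 ± 29.5 CPM in WT_H2AZ (SD, n = 3 each), or -1.47 ± 0.111 in log2 (SE, adjusted p = 4.6e-05). CAT8, a partner activator of genes for non-fermented carbon, fell by 1.30 on the log2 scale (adjusted p = 0.000144), and TYE7, an activator of glycolytic genes, rose by 0.84 ± 0.210 (adjusted p = 0.0160). The TYE7 groups overlapped, with 82.5 to 139 CPM in H2AZ_4KR and 51.1 to 87.8 CPM in WT_H2AZ. Of 13 Adr1 target genes other than ADH2, 8 fell and none rose, which by adjusted p were led by POX1, the first enzyme of fatty acid beta-oxidation, at -1.24 ± 0.158 (adjusted p = 0.000765). ACS1 came next, then the acetate transporter gene ADY2 at -1.73 ± 0.280 (adjusted p = 0.00245), the glycerol kinase gene GUT1 at -0.73 ± 0.1205 (adjusted p = 0.0027), RGI2 at -2.82 ± 0.473 (adjusted p = 0.00289) and ICL2 at -0.71 ± 0.129 (adjusted p = 0.00395). RGI2 rested on 54 fragments summed over the H2AZ_4KR libraries and 437 over those of WT_H2AZ. The median of the list was -0.73, against -0.01 for all genes. ALD4, ACS1 and ADH5 are also in this list. RAP1, at 0.53 ± 0.118 (adjusted p = 0.00974), and GCR1, at 0.43 ± 0.111 (adjusted p = 0.0191), passed the limit on p but not that on fold, and neither had overlapping groups. GCR2 was at 0.029 (adjusted p = 0.853). The other uncalled regulators were PDC2 at 0.12, REB1 at 0.11, MIG1 at -0.07 and SNF1 at -0.22.

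In Ino80_K929R no gene of the 7 lists was called, with ADR1 at 0.78 ± 0.350 (adjusted p = 0.722). Between the mutant effects, ADR1 differed by -2.26 ± 0.401 (adjusted p = 0.0189), CAT8 by -1.65 ± 0.369 (adjusted p = 0.0349) and ALD5 by -1.42 ± 0.258 (adjusted p = 0.0192). Between the wild types, ADR1 and ADH2 had opposite signs. ADR1 had 115 ± 37.3 CPM in WT_Ino80 and 409 ± 29.5 CPM in WT_H2AZ, a log2 difference of -1.79 ± 0.288 (adjusted p = 0.000538), where ADH2 was higher in WT_Ino80. In the same comparison, in which 17.7% of all genes were called higher and 15% lower, 4 of 6 other fermentation genes were higher and 1 lower. PDC6 was higher by 3.14 ± 0.223 (adjusted p = 5.8e-06), SFA1 by 0.92, PDC5 by 0.78 and ADH4 by 0.60, and ADH5 was at -1.25. Of 13 other glycolytic genes 5 were lower and none higher, with HXK1 at -1.75, PYK2 at -1.70, GLK1 at -1.50, GPM2 at -1.04 and HXK2 at -0.68.

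Of the 10 regulators 5 were lower in WT_Ino80 and none higher. Beside ADR1 these were SNF1, the kinase gene of glucose derepression, at -1.02 ± 0.122 (adjusted p = 9.3e-05), CAT8 at -1.12, MIG1, the glucose repressor gene, at -0.77, and REB1 at -0.67. Of the other lists, ALD5 was lower, at -1.67, among 7 acetate genes, and PYC1 at -0.80 and MDH2 at -0.86 among 5 gluconeogenic genes. Among 4 glycerol genes GPP1 was higher at 1.21, and GPD1 at -0.71 and GPD2 at -0.65 were lower. Among 13 Adr1 targets FDH1 at 1.86 and ICL2 at 0.76 were higher, and GUT1 at -1.18, FOX2 at -0.59 and ADH5 were lower. FDH1 rested on 78 fragments summed over the WT_Ino80 libraries and 22 over those of WT_H2AZ.

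**Figure D4:**
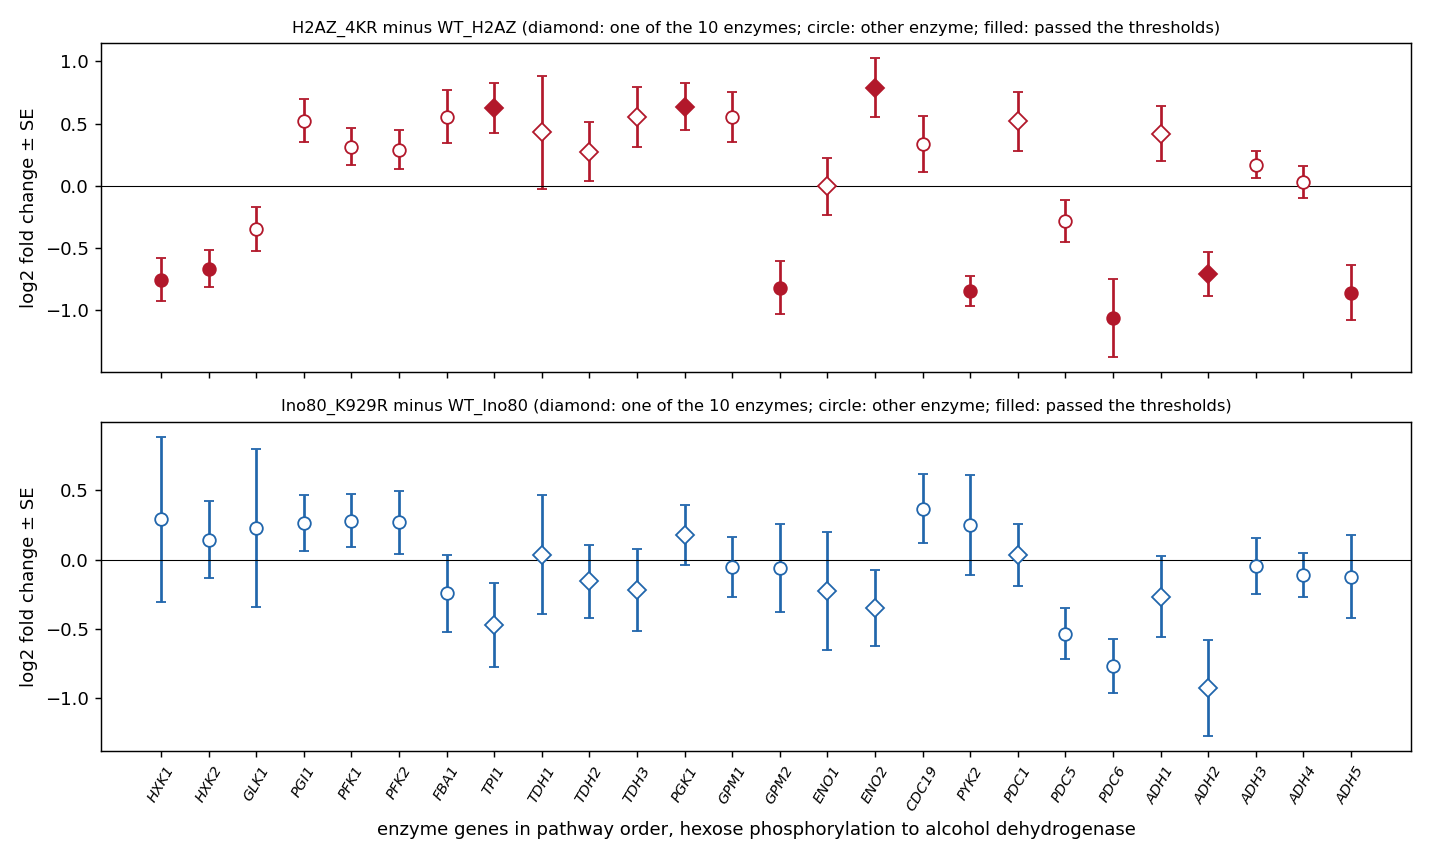
Log2 fold change with its standard error (vertical axes) of enzyme genes in pathway order from hexose phosphorylation to alcohol dehydrogenase, H2AZ_4KR minus WT_H2AZ above and Ino80_K929R minus WT_Ino80 below. Diamonds are the 10 enzymes, circles the others, and filled symbols passed both limits. In H2AZ_4KR the filled symbols are TPI1, PGK1 and ENO2 above 0 and HXK1, HXK2, GPM2, PYK2, PDC6, ADH2 and ADH5 below 0, and in Ino80_K929R none is filled.

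Likeness of pattern was described by the root mean square difference of centred log2 CPM, TMM scaled, over the 12 libraries, among 5314 genes averaging 10 CPM or more. The libraries share depth and groups, so the measure carries no test. TDH3 and ADH1 were each closest to FBA1, at 0.0572 and 0.0701, and lay 0.0983 from each other, with ACT1 the next gene for TDH3 and RPL4B for ADH1. ENO2 was closest to the ribosomal protein genes RPL4A, RPL4B and RPL3, at 0.104 to 0.109. TDH1 was closest to HSP26, the gene of a small heat shock protein, at 0.414, followed by TFS1 and NNR2, and ENO1 to AIM19 at 0.229, followed by YJR096W and YDC1. ADH2 was closest to SNZ3 at 0.305, then HMX1 and YUH1, all far looser than the match of TDH3 with FBA1, and ADH2 itself had an SD of 1.51 on this scale, against 0.31 for TDH3.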

How the data were processed

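Values are the raw counts the authors deposited, 1 table for H2AZ_4KR and WT_H2AZ and 1 for Ino80_K929R and WT_Ino80. Each count is a number of read pairs over a gene's exons, from featureCounts 2.0.1 without strand and without multiply mapped reads, per the file headers. Alignment used Bowtie 0.12.2 on sacCer3, per the submitters' processing notes. Table columns were tied to samples by group and replicate number in their names.

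From these, edgeR 4.0.16 was run under R 4.3.3 with TMM factors, glmQLFTest and genes kept by filterByExpr at min.count 10, on 6 libraries per mutant, and on all 12 for the difference between the effects and for the wild types. No fit had a replicate block. SE is the log2 fold change over the square root of F. Shares were tested with scipy 1.17.1 (exact, two-sided).

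All 10 members are named, as are their paralogs, the mutated genes and, per list and comparison, up to 6 called genes by adjusted p. For H2AZ_4KR, uncalled genes of the glycolysis and regulator lists are named beside these. For likeness of pattern the 3 closest genes of up to 6 members are named. Members and lists were chosen with earlier results of these data known. Motifs, the 600-base window and the 60-base stretches were added later still.

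The fits were tested on simulated counts. The requirements of that test were rewritten after a first version failed in the Ino80 table, where few genes changed 2-fold were called, so a missing call there carries little weight. Alternatives were RLE factors, total counts, TMM and totals of the other genes, no filter, DESeq2 1.42.0, limma-voom 3.58.1, a replicate block, all 12 libraries, no fold limit and leaving out each library. Depth was 17253140 to 20164258 counted fragments per library.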

Additional observations from a re-analysis of the deposited data

How the results depend on the processing

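In H2AZ_4KR, RLE factors, no filter, DESeq2, limma-voom, a replicate block and TMM with totals of the other genes each kept the counts of 3 members called higher and 1 lower. Scaling by total counts gave 1 higher. The fit of all 12 libraries gave 0 higher and 0 lower, with 346 genes called in place of 739, and 1400 were called with no fold limit. Leaving out 1 library gave 0 to 2 members higher and 0 to 1 lower. In Ino80_K929R no setting called a member, while DESeq2 called 9 genes and the fit of all 12 libraries 2. Between the mutant effects, scaling by total counts called 1 member (ENO2), the replicate block left 40 genes of 265, and leaving out a library gave 26 to 594. The cause of these shifts was not tested.

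Uncalled log2 values near 0 changed sign. ENO1 in H2AZ_4KR was 0.0049 with RLE factors and with DESeq2, TDH1 in Ino80_K929R was -0.10 with limma-voom and -0.10 with the block, and PGK1 between the wild types was -0.033 with total counts. Leaving out each library gave, in H2AZ_4KR, -0.46 to 0.76 for TDH1 and -0.28 to 0.15 for ENO1. It gave, in Ino80_K929R, -0.29 to 0.41 for TDH1, -0.33 to 0.033 for TDH2, -0.36 to 0.031 for TDH3, -0.52 to 0.092 for ENO1 and -0.054 to 0.099 for PDC1. Between the mutant effects it gave -0.50 to 0.73 for TDH1, -0.10 to 0.51 for ENO1 and -0.20 to 0.54 for ADH2, and between the wild types -0.065 to 0.31 for TDH2, -0.075 to 0.11 for PGK1 and -0.52 to 0.072 for ENO1.

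Differences in paralog share changed sign on leaving out libraries for TDH1 in H2AZ_4KR (-2.37 to 0.621 points) and, in Ino80_K929R, for TDH1 (-0.113 to 0.798), TDH2 (-0.434 to 1.10), TDH3 (-1.49 to 0.548) and ENO1 (-0.932 to 3.72). The ENO1 difference in H2AZ_4KR ranged from -11.6 to -8.42 points.

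Correlations of the deviations of same-numbered libraries had mixed signs (0.164, 0.210 and -0.105 in the H2AZ table and 0.381, -0.385 and -0.132 in the Ino80 table), so the numbers were not used as pairs. Larger values came from libraries of unlike number in the Ino80 table. Ino80_K929R replicate 3 and WT_Ino80 replicate 2 had 0.620, and Ino80_K929R replicate 1 and WT_Ino80 replicate 2 had -0.504. With the replicate block, 776 genes were called in H2AZ_4KR, the count of called members did not change in any comparison, and shares had exact sign-flip p of at least 0.25, the smallest that 3 pairs allow, with the summed share at 2.59 points in H2AZ_4KR. Depth limits the genes with few fragments, such as PDC6, at 22 to 79 fragments per library in the H2AZ table. RGI2, PCK1 and FDH1 also had few there, at 54, 76 and 43 fragments summed over the H2AZ_4KR libraries. The Ino80 table's spread limits what could be called in that table.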
